A study of Homo sapiens with 6 samples.

Results

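The NuRD complex (nucleosome remodeling and deacetylase) is described here through the RNA of 10 of its subunit genes, CHD3, CHD4, HDAC1, HDAC2, MBD2, MBD3, MTA1, MTA2, GATAD2A and GATAD2B. They were chosen by name and are 10 of the 62754 genes in the deposited tables, with 1 row each. RNA came from HUDEP-2, an immortalised human erythroid progenitor line whose main hemoglobin is of the adult type. All 6 libraries are from cells kept in StemSpan SFEM with doxycycline (1 µg per ml), dexamethasone (1e-06 M), SCF (50 ng per ml) and EPO (3 units per ml), and all were infected with a lentivirus, put on puromycin (2 µg per ml) 24 h later for 48 h, and collected 72 h after transduction. In 3 libraries the virus carried the shRNA named MEN1sh2 against MEN1, the gene of menin, and these carry the label MEN1 knockdown. In the other 3 it carried a non-targeting control shRNA, and these carry the label WT. A single MEN1 hairpin was used, in a single cell line, so a hairpin-specific effect and an effect of lower menin cannot be told apart.

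NuRD joins an ATP-dependent remodeler, CHD3 or CHD4, with the histone deacetylases HDAC1 and HDAC2 on a scaffold of MTA proteins, and it also holds a methyl-CpG-binding-domain protein, MBD2 or MBD3, and a GATAD2 protein. Most subunits come from a pair of paralogous genes, and MBD2 and MBD3 do not occur in the same complex. In adult erythroid cells the repressors BCL11A and ZBTB7A bring NuRD to the fetal globin genes. Menin tethers the MLL1 methyltransferase, which writes histone H3 lysine 4 methylation at CpG-rich promoters and binds unmethylated CpG through its CXXC domain.

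Because the MBD and MLL proteins read CpG dinucleotides, the 250 bases upstream of a RefSeq start are shown for 4 subunit genes. These genes are the members that changed most in each direction (HDAC1 higher, MTA1 lower), the remodeler CHD4 and MBD3. The sequences are on build GRCh38.p14, written 5′ to 3′ on the strand of the gene, with CG dinucleotides in capitals. HDAC1 lies on the plus strand at chr1:32291833-32292082, CHD4 on the minus strand at chr12:6606452-6606701, MTA1 on the plus strand at chr14:105419577-105419826 and MBD3 on the minus strand at chr19:1592866-1593115. The CHD4 window lies inside the gene's span in the tables, downstream of its first annotated base.
HDAC1: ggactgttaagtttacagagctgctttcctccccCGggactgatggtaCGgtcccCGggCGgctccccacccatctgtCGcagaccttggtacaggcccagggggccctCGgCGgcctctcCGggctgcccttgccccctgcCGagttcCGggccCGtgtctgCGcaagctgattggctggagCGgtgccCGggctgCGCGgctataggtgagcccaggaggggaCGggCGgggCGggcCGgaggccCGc
CHD4: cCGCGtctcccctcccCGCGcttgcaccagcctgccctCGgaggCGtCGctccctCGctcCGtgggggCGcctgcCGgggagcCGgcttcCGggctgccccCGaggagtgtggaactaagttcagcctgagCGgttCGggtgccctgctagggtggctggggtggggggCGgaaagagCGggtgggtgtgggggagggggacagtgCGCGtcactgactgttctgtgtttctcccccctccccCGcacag
MTA1: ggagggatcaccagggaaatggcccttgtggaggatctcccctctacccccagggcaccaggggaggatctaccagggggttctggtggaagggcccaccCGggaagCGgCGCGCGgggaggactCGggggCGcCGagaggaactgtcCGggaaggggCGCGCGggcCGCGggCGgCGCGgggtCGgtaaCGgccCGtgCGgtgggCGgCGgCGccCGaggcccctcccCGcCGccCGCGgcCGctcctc
MBD3: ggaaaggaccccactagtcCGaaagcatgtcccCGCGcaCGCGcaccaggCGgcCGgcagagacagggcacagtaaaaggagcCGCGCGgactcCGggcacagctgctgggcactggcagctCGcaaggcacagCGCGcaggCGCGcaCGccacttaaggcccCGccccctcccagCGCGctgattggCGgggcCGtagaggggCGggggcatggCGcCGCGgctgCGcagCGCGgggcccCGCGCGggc

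All 10 genes matched a RefSeq promoter window, and MTA2 and GATAD2A matched 2. The motif counted was CG, which reads the same on both strands. HDAC1 and CHD4 each hold 21 CG dinucleotides in this window, MTA1 holds 30 and MBD3 holds 32, against a median of 11 over all 35116 windows of 250 bases. Among those windows MTA1 stands at percentile 88.4, MBD3 at 91.2, HDAC1 and CHD4 at 70.9, and CHD3, with 9 CG dinucleotides, at 46.8. MTA2, which rose, holds 25 and 33 in its 2 windows, and GATAD2A, which fell, holds 25 and 32. HDAC2, MBD2 and GATAD2B hold 18, 21 and 17. The CHD3 window (chr17:7888539-7888788) also lies inside that gene's span, which starts at 7884796 in the tables. So do the 2nd windows of MTA2 and GATAD2A and the windows of HDAC2 and GATAD2B in their genes. The ends of the MTA1 window and of the 1st GATAD2A window run past the starts of those genes' spans (105419820 and 19385826). Across the 9668 tested genes with a window the median was 21. Genes that rose with the MEN1 shRNA and genes that fell each had this median. With the genes grouped by CG count, the median log2 fold change ran from -0.12 (10 to 19 CG) to -0.03 (0 to 9 CG). A link of the count with direction was not tested. These counts describe the letters of the window, and neither methylation nor binding was measured.

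The hairpin lowered its target. TPM (transcript abundance per length, scaled to the same total of 1000000 in each library) of MEN1 was 6.29, 6.44 and 6.88 in the MEN1 shRNA libraries, next to 41.2, 39.6 and 37.1 in the controls. Depth, inferred from coverage, was 5565 to 10810 aligned megabases per library. Erythroid identity was checked on 10 marker genes, all of which passed the filter on low values. Their summed TPM was 95907 to 107883 with the MEN1 shRNA and 55447 to 61495 in the controls. Most of this sum came from the globin genes HBA1, HBA2 and HBB. Of the 10, 7 rose, and KLF1, GATA1 and EPOR did not pass the threshold used below. Markers of other blood cells were mostly absent: 5 of 6 megakaryocytic, 5 of 7 granulocytic and monocytic, 4 of 5 lymphoid and 2 of 3 stem and progenitor genes stayed below 1 TPM in every library. Their summed TPM, with the MEN1 shRNA and in the controls, was 17 to 21.6 and 31.9 to 36.7 for the megakaryocytic list, 0.525 to 1.09 and 3.74 to 5.3 for the granulocytic and monocytic list, and 3.97 to 5.71 and 0.874 to 1.23 for the lymphoid list, where CD3D was the gene above 1 TPM. The stem and progenitor sum, nearly all from KIT, was 118 to 124 and 252 to 288, and the part of these markers in the members' results was not tested. PF4, PPBP and MS4A1 are listed at 0 throughout, and CD34 reached at most 0.750 TPM. The globin genes took 9.21% to 10.4% of TPM with the MEN1 shRNA and 5.23% to 5.78% in the controls, so the composition of the libraries moved with the groups, and with globin and mitochondrial genes taken out of TPM 8 of the 10 members passed the threshold used below, 5 higher and 3 lower, against 52.8% of all genes in that fit. The replicates are labelled as biological, with no further detail.

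By TPM, NuRD subunit genes changed in small steps and in both directions. Of the 10 members, all of which passed the filter of 1 TPM in at least 3 libraries, 4 were higher (CHD3, CHD4, HDAC1 and MTA2) and 3 lower (MBD3, MTA1 and GATAD2A) at an adjusted p under 0.05 in limma. HDAC2, MBD2 and GATAD2B did not pass. The 7 are 70% of the members, against 53.6% of the 14294 genes tested, of which 22.1% were higher and 31.5% lower. In a fit of only the 10188 genes with a mean TPM of 5 or more, which all members have, 62.3% of genes and 8 members passed. The split over all genes, 3158 higher and 4499 lower, depends on scaling and was 3815 and 3780 with median-of-ratios scaling, or 3813 and 3805 after removal of the GC and length trend. The log2 fold changes of log2(TPM + 1) ran from -0.56 to 0.48. In this fit none of the 10 members, and so none of the 7 past the threshold, reached 1.5-fold. Of the 14294 genes tested, 7657 passed the threshold and 4136 of these reached 1.5-fold. In other fits some members did. These were MBD3 (-0.60) and MTA1 (-0.67) by coverage, a measure described below, and HDAC1 (0.592) with the GC and length trend removed. MTA1 also did without MEN1 shRNA replicate 1 (-0.625). The median over the members was 0.12 and over all genes tested -0.07, and the median absolute change was 0.24 against 0.37. The 3 MEN1 shRNA libraries lay wholly to one side of the 3 controls for 8 members, against 61.8% of all genes tested. Leaving out MEN1 shRNA replicate 3 or control replicate 3 left 4 members past the threshold in place of 7. In bulk RNA, fewer cells of a type and less RNA per cell cannot be told apart.

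**Figure D1:**
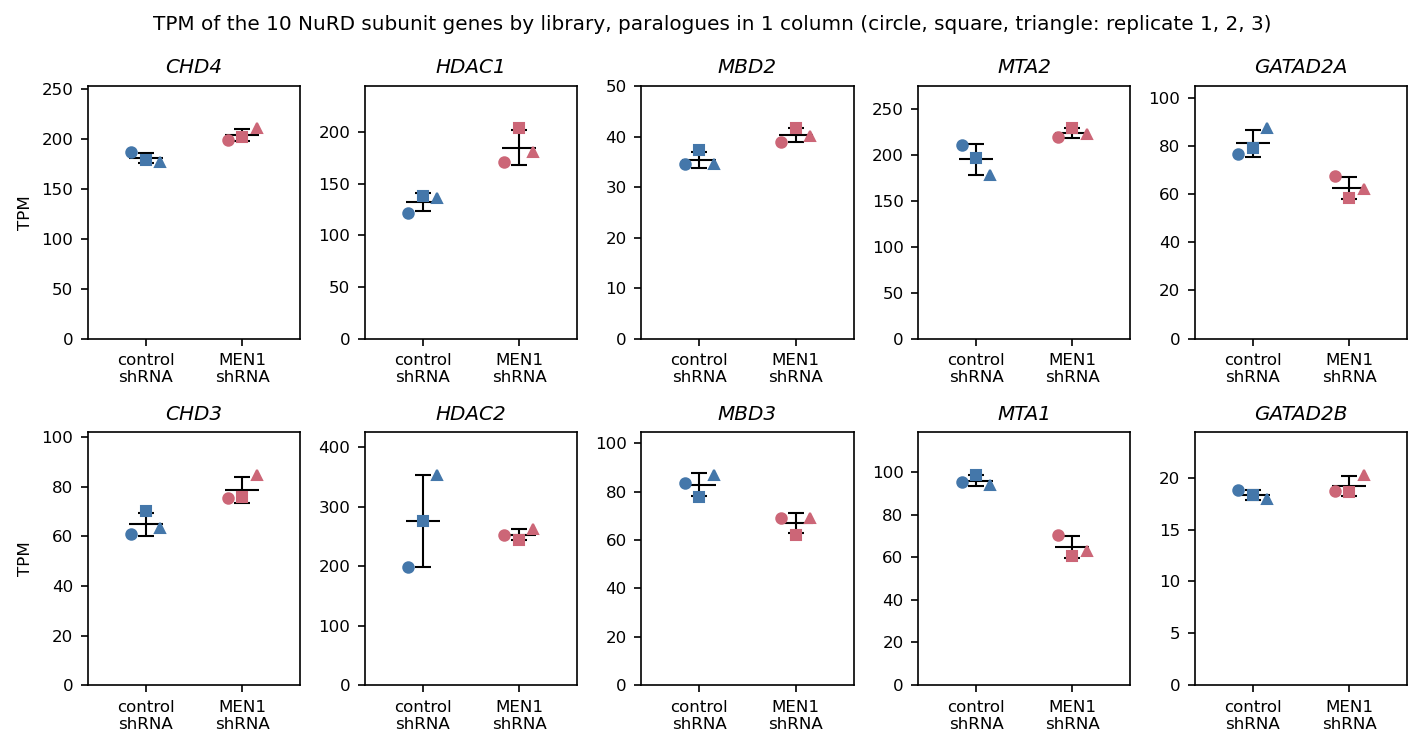
TPM (vertical axes, from 0) of the 10 NuRD subunit genes in the 3 control shRNA and 3 MEN1 shRNA libraries, with the horizontal line at the group mean and bars of 1 SD (n = 3). The HDAC2 controls are spread from 198 to 354, while MTA1, MBD3 and GATAD2A sit lower with the MEN1 shRNA and HDAC1, CHD4 and CHD3 sit higher.

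The tables also give mean coverage per exonic base, which served as a 2nd measure of the same reads. In genes with 1 annotated transcript, coverage and TPM stood in a fixed ratio within a library, so coverage was put on the TPM scale. In genes with several transcripts TPM is not a fixed multiple of coverage, and the ratio can move between libraries. By coverage, 9 of the 10 members passed the threshold, 5 higher and 4 lower, against 53.5% of all genes, and the groups did not overlap for 9 members, against 63.2% of all genes. HDAC2, lower, and MBD2, higher, were the additions, and GATAD2B was the member that did not pass. Leaving out 1 library at a time gave 7 or 8 members by coverage. This measure was added after the TPM values had been seen.

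**Figure D2:**
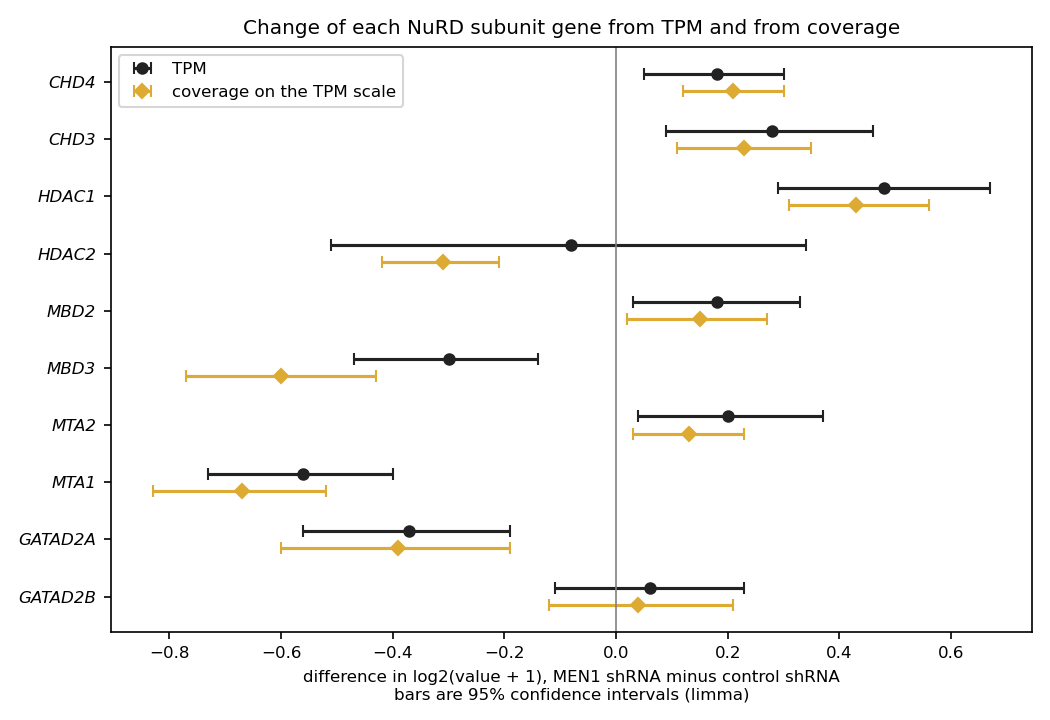
Difference in log2(value + 1) between MEN1 shRNA and control shRNA libraries (horizontal axis) for each member, from TPM (circles) and from coverage on the TPM scale (diamonds), with 95% confidence intervals from limma. The 2 measures lie on the same side of 0 for all 10 genes, and the HDAC2 interval runs from -0.51 to 0.34 by TPM and from -0.42 to -0.21 by coverage.

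Both remodeler genes were slightly higher with the MEN1 shRNA. CHD4, the catalytic motor of most NuRD in dividing cells (ENSG00000111642, chromosome 12, 6570082 to 6614524, minus strand), had 199, 202 and 211 TPM in the MEN1 shRNA libraries and 187, 179 and 177 TPM in the control libraries. Every MEN1 shRNA library was above every control, by a narrow margin. The means were 204 ± 6.30 and 181 ± 5.34 TPM (SD, n = 3 each), or 1.13 as a ratio, which limma gave as 0.18 ± 0.0529 (SE) on the log2 scale with an adjusted p of 0.0247. CHD3, its paralogue (ENSG00000170004, chromosome 17, 7884796 to 7912760, plus strand), was at 75.5, 75.9 and 85.0 TPM against 60.9, 70.1 and 63.6 TPM, again without overlap (log2 fold change 0.28, SE 0.0780, adjusted p 0.0189). Coverage gave 0.21 for CHD4 (adjusted p 0.00413) and 0.23 for CHD3 (adjusted p 0.00885), and both passed in each of the 6 coverage fits that left out a library. By TPM the CHD4 call was lost without MEN1 shRNA replicate 2 (adjusted p 0.0557) or 3 (0.0830) and without control replicate 2 (0.0734) or 3 (0.0795), and the CHD3 call without MEN1 shRNA replicate 3 (0.0629) or control replicate 1 (0.0623) or 3 (0.0570). The 5′ end of CHD3 overlaps the oppositely oriented NAA38, a gene of similar level (70.3 to 84.0 TPM), and the sources used here do not say whether the quantification used strand.

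Of the deacetylase genes, HDAC1 rose and HDAC2 did not pass the test by TPM. HDAC1 (ENSG00000116478, chromosome 1, 32292083 to 32333635, plus strand) had 171, 204 and 180.5 TPM in the MEN1 shRNA libraries and 122, 138 and 136 TPM in the control libraries. Every MEN1 shRNA library was well above every control, and the means were 185 ± 16.8 and 132 ± 8.41 TPM, a ratio of 1.40. The log2 fold change of 0.48 (SE 0.0816, adjusted p 0.00179) was the largest rise among the members, and it passed the threshold in all 18 alternative fits. HDAC2 (ENSG00000196591, chromosome 6, 113933028 to 114011308, minus strand) had 253, 244 and 262 TPM in the MEN1 shRNA libraries and 198, 276 and 354 TPM in the control libraries. The controls enclosed the MEN1 shRNA values on both sides, and the log2 fold change of -0.08 (SE 0.183, adjusted p 0.725) did not pass. Its sign turned with median-of-ratios scaling (0.012) and without control replicate 3 (0.11).

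HDAC2 read differently by coverage. On the TPM scale its coverage was 46, 43.3 and 43.2 in the MEN1 shRNA libraries, next to 54.2, 54.9 and 56.4 in the controls. Here the groups were well apart, with a coefficient of variation of 2.01% in the controls, where TPM had 28.2%, a value above that of 87.0% of all genes tested. The ratio of the means was 0.801 and the log2 fold change -0.31 (SE 0.0415, adjusted p 0.00140), and it passed without each library in turn. The ratio of coverage to TPM was 0.273, 0.199 and 0.159 in control replicates 1, 2 and 3 and 0.182, 0.177 and 0.165 with the MEN1 shRNA, so the spread among the controls lay in this ratio. GENCODE v29 lists 17 transcripts for HDAC2. How reads were divided among them in each library was not tested.

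**Figure D3:**
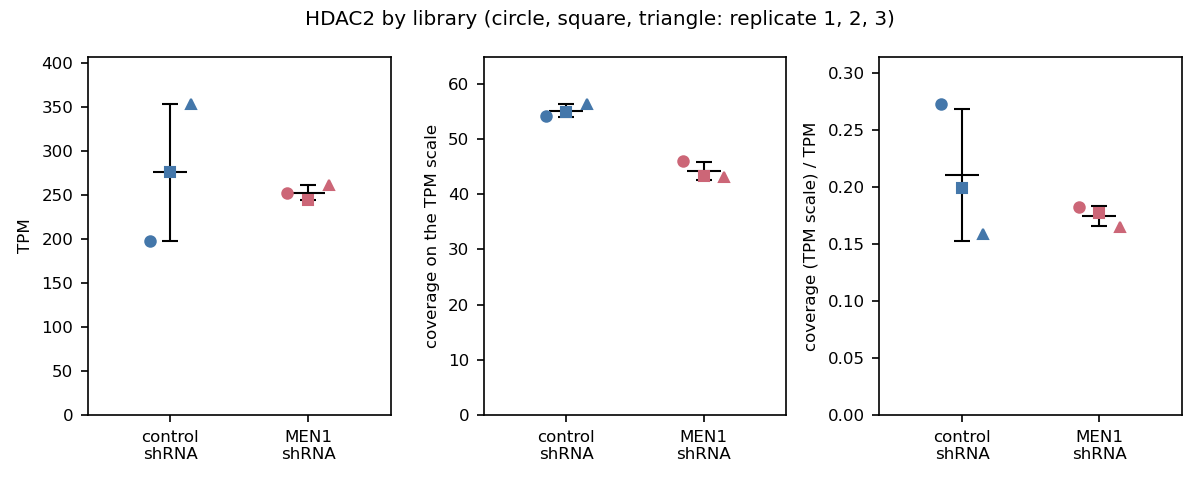
HDAC2 in each library as TPM (left), as coverage on the TPM scale (middle) and as the ratio of coverage to TPM (right), with group means and bars of 1 SD (n = 3). The controls run from 198 to 354 by TPM and from 54.2 to 56.4 by coverage, above the MEN1 shRNA libraries at 43.2 to 46.

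Among the methyl-CpG-binding-domain subunits, MBD3 fell and MBD2 narrowly missed the threshold. MBD2, which binds methylated CpG (ENSG00000134046, chromosome 18, 54151606 to 54224669, minus strand), had 38.9, 41.7 and 40.2 TPM in the MEN1 shRNA libraries and 34.6, 37.3 and 34.5 TPM in the control libraries. The groups did not overlap, yet the log2 fold change of 0.18 had an adjusted p of 0.0515 (SE 0.0656), and by coverage it narrowly passed (0.15, adjusted p 0.0485). Without a library the coverage call held only where control replicate 2 was left out (adjusted p 0.0352), and by TPM the gene passed without MEN1 shRNA replicate 1 (0.0455). MBD3, whose domain binds methylated CpG poorly (ENSG00000071655, chromosome 19, 1573596 to 1592865, minus strand), was at 69.3, 62.2 and 69.3 TPM against 83.7, 77.7 and 87.1 TPM. Each MEN1 shRNA library was below each control, with means of 66.9 ± 4.09 and 82.8 ± 4.73 TPM and a log2 fold change of -0.30 (SE 0.0718, adjusted p 0.00881). Coverage gave a larger change, from 20.8 ± 1.45 to 13.4 ± 0.765 on the TPM scale (log2 fold change -0.60, adjusted p 0.000918). The ratio of coverage to TPM for MBD3 was 0.201, 0.219 and 0.180 with the MEN1 shRNA. In the controls it was 0.242, 0.288 and 0.225, and the cause of this difference was not tested.

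Some limits touch MBD3. An unnamed gene on the same strand (ENSG00000267059) overlaps it and had 10.3, 2.76 and 0 TPM in the MEN1 shRNA libraries, next to 5.64, 0.899 and 0.275 TPM in the controls. Summed with it, MBD3 was at 79.6, 65.0 and 69.3 TPM against 89.4, 78.6 and 87.4 TPM, and the groups then overlapped. MBD3 also has the highest GC content of the members (62.5% in its longest transcript), and with the GC and length trend of each library removed its change was -0.18 (adjusted p 0.0772).

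Of the MTA scaffold genes, MTA1 fell and MTA2 was slightly higher. MTA1 (ENSG00000182979, chromosome 14, 105419820 to 105470729, plus strand) had 70.6, 60.8 and 63.0 TPM in the MEN1 shRNA libraries and 95.4, 98.8 and 93.7 TPM in the control libraries. An unnamed opposite-strand gene at its end had 1.64 to 3.46 TPM. The gap between the groups was wider than the range within either, and the means were 64.8 ± 5.15 and 95.9 ± 2.59 TPM, a ratio of 0.675. Its log2 fold change of -0.56 (SE 0.0706, adjusted p 0.000429) was the lowest of the members and passed in all 18 alternative fits, between -0.68 and -0.42. MTA2, the more abundant scaffold gene (ENSG00000149480, chromosome 11, 62593214 to 62601865, minus strand), was at 219, 229 and 223 TPM against 211, 196 and 178 TPM. Its control spread was wide next to the difference (log2 fold change 0.20, SE 0.0707, adjusted p 0.0434). The MTA2 call was lost without MEN1 shRNA replicate 1 (adjusted p 0.0587), 2 (0.117) or 3 (0.0927), without control replicate 2 (0.0915) or 3 (0.127), and by coverage without MEN1 shRNA replicate 2 or 3 or control replicate 1 or 2 (0.0762 to 0.108).

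The GATAD2 proteins link the MBD subunit to the remodeler. GATAD2A (ENSG00000167491, chromosome 19, 19385826 to 19508932, plus strand) had 67.6, 58.3 and 62.1 TPM in the MEN1 shRNA libraries and 76.9, 79.2 and 87.6 TPM in the control libraries. It fell without overlap between the groups, with mean TPM of 62.6 ± 4.69 next to 81.2 ± 5.65 (log2 fold change -0.37, SE 0.0793, adjusted p 0.00552), and passed in all 18 alternative fits. GATAD2B (ENSG00000143614, chromosome 1, 153789030 to 153923360, minus strand) was at 18.7, 18.6 and 20.3 TPM against 18.8, 18.3 and 17.9 TPM. Those values overlapped, and the interval of its log2 fold change ran from -0.11 to 0.23 (adjusted p 0.530).

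Within pairs, the share of each paralogue lay apart between the groups in 4 of the 5 cases. For single genes the groups did not overlap in 61.8% of all genes tested by TPM and 63.2% by coverage. The rate for shares of other gene pairs was not computed. HDAC1 made up 40.4%, 45.5% and 40.8% of the summed TPM of HDAC1 and HDAC2 in the MEN1 shRNA libraries, next to 38.2%, 33.3% and 27.8% in the controls, and by coverage 66.7% ± 1.94 against 54.3% ± 0.696 (SD, n = 3 each). MBD2 made up 37.6% ± 2.2 of MBD2 and MBD3 against 30% ± 2.11 by TPM, and 64.6% ± 1.81 against 51.4% ± 0.811 by coverage. MTA2 made up 77.6% ± 1.76 of MTA1 and MTA2 against 66.9% ± 1.74. In each of these 3 pairs the groups did not overlap, by TPM or by coverage, and the MEN1 shRNA libraries were the higher. GATAD2A went the other way, with 76.5% ± 1.61 of GATAD2A and GATAD2B against 81.5% ± 1.39, also without overlap. CHD4 held 72.2% ± 0.749 of CHD3 and CHD4 against 73.6% ± 1.81, and those groups overlapped. No test was run on these shares. Absolute shares differ between TPM and coverage, which is a mean per exonic base of a gene, and the cause of the difference was not tested.

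**Figure D4:**
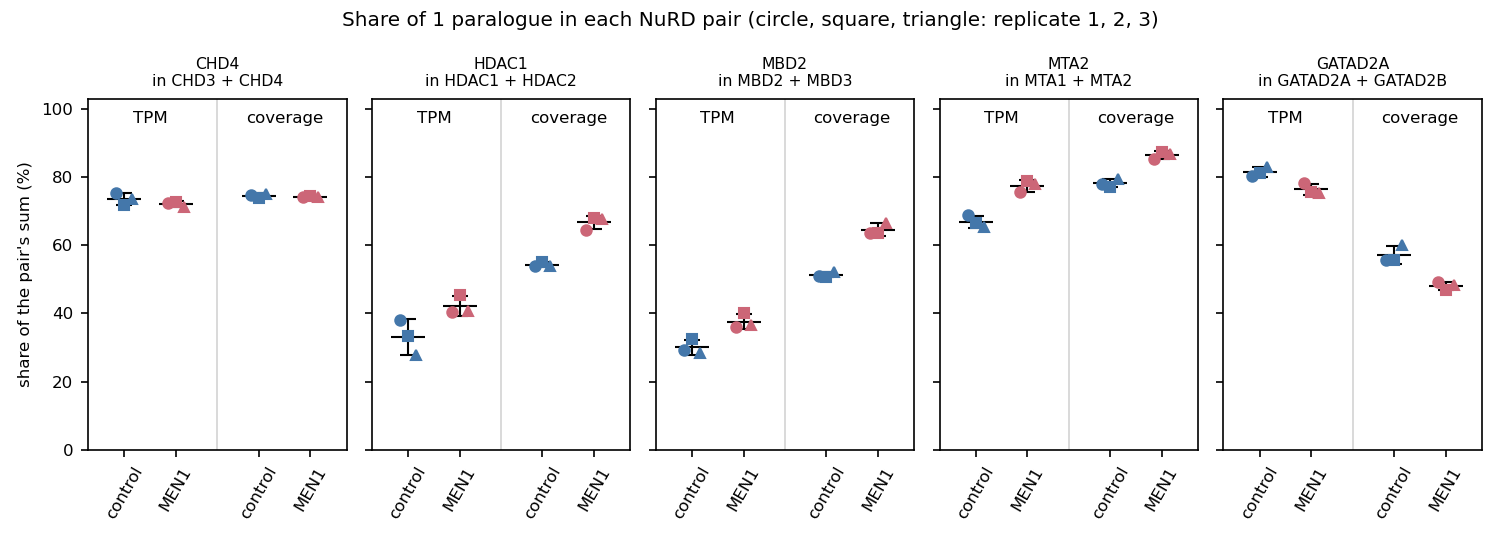
Share of 1 paralogue in the sum of its pair (percent, vertical axis) in each library, by TPM (left of each panel) and by coverage (right), with group means and bars of 1 SD (n = 3). The HDAC1, MBD2 and MTA2 shares are higher and the GATAD2A share lower in the MEN1 shRNA libraries, and the CHD4 shares overlap.

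Pair sums add the RNA of the paralogues among the members. They are not totals for a role, since MTA3 (12.5 to 15 TPM) is left out and HDAC1 and HDAC2 also belong to other complexes. MTA1 and MTA2 together were at 289 ± 1.93 TPM with the MEN1 shRNA and 291 ± 17.7 TPM in the controls, so this sum overlapped between the groups. CHD3 and CHD4 together were at 283 ± 11.6 TPM against 246 ± 4.50 TPM, higher without overlap. The GATAD2 sum was 81.8 ± 4.76 TPM against 99.6 ± 5.21 TPM and the MBD2 and MBD3 sum 107 ± 2.95 TPM against 118 ± 3.30 TPM, both lower without overlap. The MBD sum leaves out the unnamed same-strand gene that overlaps MBD3. With that gene added, MBD3 itself no longer lay apart between the groups. HDAC1 and HDAC2 together were at 438 ± 12.4 TPM against 408 ± 84.5 TPM and overlapped, whereas by coverage the sum was 133 ± 3.06 against 121 ± 2.7, higher without overlap. These sums are descriptions, with no test.

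In order of control TPM, a per-length scale, HDAC2 (276 ± 77.7) stood first, followed by MTA2 (195 ± 16.6), CHD4 (181 ± 5.34), HDAC1 (132 ± 8.41), MTA1 (95.9 ± 2.59), MBD3 (82.8 ± 4.73), GATAD2A (81.2 ± 5.65), CHD3 (64.9 ± 4.75), MBD2 (35.5 ± 1.55) and GATAD2B (18.4 ± 0.474). Neighbours whose ranges overlapped were HDAC2 with MTA2, MTA2 with CHD4, and MBD3 with GATAD2A, and the other neighbours were apart. With the MEN1 shRNA the first 4 and the last 2 places were unchanged. CHD3 (78.8 ± 5.36) now stood next after HDAC1, above MBD3, MTA1 and GATAD2A, whose ranges overlapped in turn. HDAC1 and CHD4 overlapped there, whereas their control ranges were apart. The order depends on the measure: by coverage, averaged over all annotated exonic bases, the controls began with MTA2 (113), CHD4 (78.7), HDAC1 (65.4) and HDAC2 (55.1).

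A dense mutagenesis screen published for HUDEP-2 cells assigned fetal globin repression to a NuRD version made of CHD4, HDAC2, MBD2, MTA2 and GATAD2A. Of these 5, CHD4 and MTA2 were higher, GATAD2A lower, and HDAC2 and MBD2 not past the threshold by TPM. Of their 5 paralogues, CHD3 and HDAC1 were higher, MBD3 and MTA1 lower, and GATAD2B not past it. These are 60% and 80% of each set, beside 53.6% of all genes tested. In the controls each of CHD4, HDAC2, MTA2 and GATAD2A had a higher mean TPM than its paralogue, and MBD2 had a lower one than MBD3. By coverage 2 of these orders turned, with HDAC2 (55.1) below HDAC1 (65.4) and MBD2 (21.9) above MBD3 (20.8), the latter pair with overlapping ranges.

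For likeness of pattern, 6295 other genes with a mean of at least 20 TPM were ranked by distance to CHD4 in centred log2(TPM + 1) over the 6 libraries. PHKB (distance 0.0296), PRDM2 (0.0313) and EMP3 (0.0473) were nearest. As the smallest of 6295 distances they are close by selection, and shared regulation with CHD4 was not tested.

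Of the NuRD subunits outside the 10, only RBBP7 passed the threshold by TPM. RBBP7, a histone-binding WD40 protein that NuRD shares with other complexes, had 133, 97.5 and 100 TPM in the MEN1 shRNA libraries and 179, 198 and 189 TPM in the control libraries. It fell without overlap (log2 fold change -0.79, SE 0.117, adjusted p 0.000966). RBBP4, its paralogue, was at 69.1, 54.1 and 45.1 TPM against 61.8, 68.2 and 63.7 TPM and did not pass (-0.22, adjusted p 0.229). By coverage RBBP4 was 16.4 ± 1.93 against 27.2 ± 1.93 on the TPM scale and passed (-0.70, adjusted p 0.00169), and its ratio of coverage to TPM was 0.246, 0.263 and 0.397 with the MEN1 shRNA and 0.412 to 0.429 in the controls. CDK2AP1 (-0.33, adjusted p 0.0830) and MTA3 (-0.03, adjusted p 0.814) did not pass, and CHD5, at most 0.298 TPM, was not tested. In all, 1 of the 4 tested was lower and 0 higher (25% past the threshold, beside 53.6% of all genes tested).

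Genes of 8 factors that recruit NuRD or act on its subunits were read beside the complex. BCL11A, which recruits NuRD to the fetal globin genes, fell, with mean TPM of 3.04 ± 2.12 next to 19.4 ± 1.97 (log2 fold change -2.45, adjusted p 0.000486). ZFPM1 (FOG1), which joins GATA1 to NuRD, rose from 16.8 ± 1.54 to 26.8 ± 1.56 TPM (0.65, adjusted p 0.000699). ZNF410, a zinc finger activator known for acting on CHD4, rose from 39.6 ± 5.32 to 52.0 ± 5.00 TPM (0.39, adjusted p 0.0225). ZBTB7A (0.36) and SALL4 (0.44), a stem cell zinc finger protein, were also higher, and IKZF1 (-0.47), the zinc finger protein Ikaros, and ZMYND8 (-0.23), a reader of acetylated chromatin, lower, with adjusted p-values of 0.00216 to 0.0315. GATA1 did not pass (0.06, adjusted p 0.327). All 8 passed the filter, with 4 higher and 3 lower (87.5%, against 53.6% of all genes tested).

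**Figure D5:**
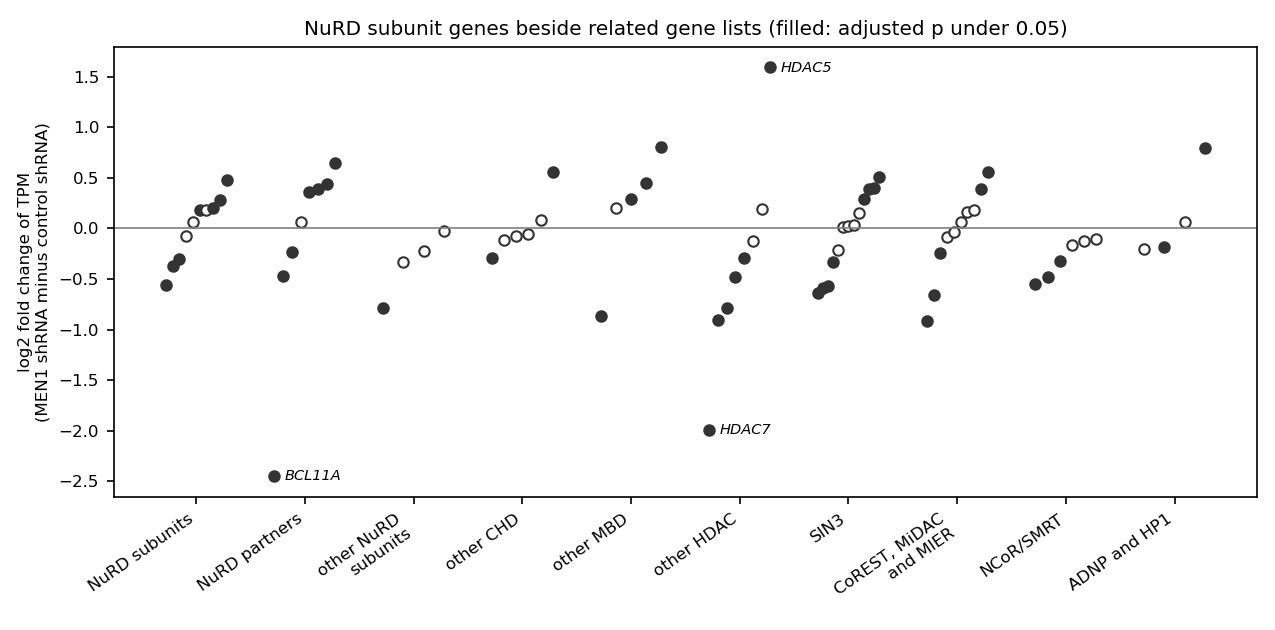
Log2 fold change of TPM (vertical axis) for each tested gene of NuRD, its partners and related gene lists, filled where the adjusted p in limma is under 0.05. The 10 NuRD subunits lie between -0.56 and 0.48, and BCL11A (-2.45), HDAC7 (-1.99) and HDAC5 (1.59) lie outside -1 to 1.

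Other complexes that hold HDAC1 and HDAC2 or HDAC3 were counted in the same way. Of 13 SIN3 complex genes, 4 were higher and 4 lower, and BRMS1 (log2 fold change -0.64), SIN3B (-0.59) and ING2 (-0.57) had the lowest adjusted p-values (0.000182 to 0.00160). Of 10 tested CoREST, MiDAC and MIER genes, 2 were higher and 3 lower, among them the CoREST subunits RCOR1 (-0.66, adjusted p 0.000138) and HMG20B (0.56, adjusted p 0.00735). In the NCoR/SMRT complex, 3 of 6 genes were lower and 0 higher, namely TBL1X (-0.55), HDAC3 (-0.48), its deacetylase, and TBL1XR1 (-0.32). Of ADNP and the HP1 genes, partners of CHD4 outside NuRD, CBX1 rose (0.79, adjusted p 0.000926), CBX3 fell (-0.18, adjusted p 0.0276) and 2 did not pass. The shares past the threshold were 61.5% for SIN3 and 50% for each of the other 3 lists, near the 53.6% of all genes tested. The medians of these 4 lists were 0.02, 0.01, -0.24 and -0.06.

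Relatives of the subunits outside the complex were compared last. The shares past the threshold were 33.3% for the other CHD genes and 80% for the other MBD genes, beside 53.6% of all genes tested. Of 6 other CHD genes, CHD2 rose (0.56, adjusted p 0.00566) and CHD1, which reads methylated histone H3 lysine 4, fell (-0.29, adjusted p 0.0176). Of 5 other MBD genes, 3 were higher and 1 lower, led by the DNA glycosylase MBD4, from 55.1 ± 2.72 to 96.8 ± 4.96 TPM (0.80, adjusted p 7.7e-05), MBD5 (-0.87, adjusted p 0.00443) and MBD6 (0.45, adjusted p 0.0106).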

How the data were processed

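RNA from 6 HUDEP-2 libraries (3 MEN1 shRNA, 3 control shRNA, grouped by title) was poly(A)-selected and made into directional libraries, per the labels' protocols. The submitters' processing notes name FastQC, Trimmomatic, STAR 2.7.1a, Picard 2.20.4, StringTie 2.0.4 and build hg38, and coordinates of genes are those of the tables. Each deposited table gives coverage (mean signal per exonic base, per the file headers), FPKM and TPM. The authors scaled the deposited FPKM by gene length and depth and the deposited TPM to 1000000 per library. In control replicate 2, 2 genes with negative residues in the deposited values were set to 0. The deposited tables used here give no read counts, so no count model was fitted.

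The 14294 genes that reached a TPM of 1 in 3 or more libraries were fitted as log2(TPM + 1) with limma 3.58.1 in R 4.3.3 (eBayes with trend, 2-sided, Benjamini-Hochberg over all genes tested, threshold 0.05). A fold change on this scale understates changes of low genes. An exact permutation of 3 against 3 libraries cannot give a p under 0.1. Coverage was divided by the library's median ratio of coverage to FPKM in genes with 1 GENCODE v29 transcript (within 0.1% of it in 94.9% to 95.4% of them) and put on the TPM scale. The fit was first tested on simulated data. Related genes were named as at most 3 per list, those of lowest adjusted p among genes past it, and all members, other subunits and partners were named. A gene that this rule would name is not reported here. Members and lists were chosen with earlier results of these data known. Summaries and figures used Python 3.11.15, pandas 2.3.3, NumPy 2.4.6 and matplotlib 3.10.9.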

Additional observations from a re-analysis of the deposited data

How the results depend on the processing

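Of the 366 comparisons of a value with an alternative, 309 kept direction and side of the threshold, or stayed within 1.5 times for counts or 1 SD for shares. HDAC1, MTA1 and GATAD2A passed in all 18 fits. Coverage, removal of the GC and length trend and the coverage fits without a library were chosen after seeing the data, and the cause of each change below was not tested.

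Members called higher dropped to 2 without a filter (CHD3 0.277, adjusted p 0.0522; MTA2 0.202, 0.110), without the mean-variance trend and with the replicate block (CHD4 0.175, adjusted p 0.0724 and 0.0688; MTA2 0.202, 0.0913 and 0.0710). The block moved the count over all genes from 7657 to 7012. Same-numbered libraries did not deviate together (correlations 0.017, -0.027 and -0.012), so the numbers were not taken to pair them. MBD2 passed with FPKM (0.204), a mean TPM of 5 or more (0.179), TPM without globin and mitochondrial genes (0.245), median-of-ratios scaling (0.273), quantile normalization (0.260), coverage (0.147), and the GC and length trend removed, with or without the block (0.279). Its adjusted p over all fits ran from 0.00698 to 0.149. MBD3 did not pass with that trend removed (-0.176, adjusted p 0.0772, and 0.0616 with the block). HDAC2 passed by coverage (-0.314) and turned sign with median-of-ratios scaling (0.0118). GATAD2B passed with quantile normalization (0.205, adjusted p 0.0493). The largest shift of the all-gene median under another scaling was 0.086 (median-of-ratios).

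By coverage the difference in share was 13.2 points for MBD2 (7.58 by TPM), 8.24 for MTA2 (10.6 by TPM) and -8.98 for GATAD2A (-5.02 by TPM).

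With 1 library left out at a time, 4 to 7 members were past the threshold and 1 to 4 higher, with log2 fold changes of 0.222 to 0.333 for CHD3, 0.151 to 0.199 for CHD4, 0.138 to 0.261 for MTA2, 0.154 to 0.214 for MBD2 and -0.302 to 0.113 for HDAC2. By coverage, 3 to 4 members were then higher and 4 lower. Depth is known only through coverage, so counting error per gene is not given.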

Other observations

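Class IIa histone deacetylases, which have weak enzyme activity of their own and act with NCoR/SMRT and HDAC3, had the widest changes among the HDAC genes. HDAC7 had 20, 18.4 and 18.3 TPM in the MEN1 shRNA libraries and 74.6, 75.4 and 84.4 TPM in the control libraries, and limma gave a log2 fold change of -1.99 with an adjusted p of 1.1e-05. HDAC5 moved the other way, with 25.1, 28.4 and 25.4 TPM against 7.86, 9.17 and 7.28 TPM (1.59, SE 0.104, adjusted p 3.5e-05). HDAC4 fell from 9.5 ± 0.569 to 4.61 ± 0.801 TPM (SD, n = 3 each; -0.91, adjusted p 0.000758), and HDAC9 is listed at 0 in all 6 libraries. None of these groups overlapped where the gene was detected. Of the 8 other HDAC genes tested, 1 was higher and 5 lower, against 53.6% of all genes past the threshold in either direction.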
